A study of Mus musculus with 10 samples.

Results

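Transcripts of 47 genes of TGF-beta, activin and BMP signalling were followed in orthotopic murine pancreatic tumors under forced hyperglycemia. The genes were listed by symbol and matched to the 55359 genes of the deposited table by Ensembl identifier, with no threshold on measured values. All 47 were found, and all 47 were among the 24560 genes tested, those whose normalized counts averaged 1 or more. They comprise 3 TGF-beta ligands with 3 receptors and 4 latent TGF-beta binding proteins, 3 activin and inhibin subunits, 2 follistatins, 7 activin and BMP receptors, 4 BMP ligands, 4 genes of BMP antagonism, 5 receptor-activated and common SMADs, 2 inhibitory SMADs, 5 corepressor and ubiquitin ligase genes, and 5 target genes.

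TGF-beta, activins and BMPs are secreted dimers that bring together type I and type II serine/threonine kinase receptors. The type I receptor phosphorylates SMAD proteins, SMAD2 and SMAD3 below TGF-beta and activin receptors and SMAD1 and SMAD5 below BMP receptors, which enter the nucleus with the shared partner SMAD4 and act on target genes. In pancreatic cancer the pathway is known for a tumor-suppressive arm in epithelial cells, often lost with SMAD4, and for its effect on fibroblasts and matrix.

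The tumors arose from luciferase-expressing KPC K8484 cells, 1 murine pancreatic cancer line that carries Pdx1-Cre and a mutant Trp53 allele, placed in the pancreas of 10-week-old C57BL/6 J hosts (C57BL/6 in the labels). All mice were immunocompetent, and male and female mice were used in equal numbers according to the methods. RNA of whole tumors was sequenced from 5 normoglycemic mice on regular water (CTRL) and from 5 hyperglycemic mice given 30% dextrose water (D30) for 14 days. Sample titles call the tumors PDX, but their source is given as KPC K8484 cells. The columns of the table are named N1, N2, N4, N5 and N6, which by their letter are the normoglycemic tumors, and T1, T2, T4, T5 and T7, which were taken as D30 because it is the only other group. These names are used for the tumors below, since the numbers do not match the replicate numbers of the labels.

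The deposited values are normalized counts, that is, the reads of each gene scaled by 1 size factor for each tumor. Reads behind them numbered 29915331 to 42122304 per CTRL tumor and 29192261 to 37126175 per D30 tumor. Genes above 0 numbered 20482 in T5, the fewest, and 23446 to 25912 in the other tumors. T4 was the only tumor with reads of Y-linked genes, 841 over 4 genes against 0 in the other 9 tumors. Epithelial keratins were abundant in every tumor, and the summed level of 9 ductal epithelium markers was 204816 to 327755 in CTRL and 341551 to 448369 in D30. Only 1 of these 9 passed the test (Cldn7, lower). At an unadjusted p under 0.05 by limma were 8 of 9, 6 of them higher and 2 lower (Epcam and Cldn7). The sum of 8 fibroblast markers was 51307 to 90028 in CTRL and 12797 to 74023 in D30, lowest in T4, with 8 of 8 fitted lower, 0 of 8 called and 6 at an unadjusted p under 0.05. The sum of 8 endothelial markers was 11988 to 19386 in CTRL and 6936 to 10786 in D30, with 1 called (Cdh5, lower). Cdh5 itself held much of this sum, at 7205 to 14529 in CTRL and 2480 to 6142 in D30. Of the 8 markers 6 were fitted lower and 2 higher, Vwf (log2 fold change 0.38) and Cldn5 (0.33). The sum of 7 macrophage markers was 22144 to 32817 in CTRL and 14470 to 28500 in D30, with 1 called (Csf1r, lower). In these lists 3 endothelial and 4 macrophage markers had an unadjusted p under 0.05, all lower. Islet markers summed to 13.28 to 1415 in CTRL and 0 to 15.04 in D30, with 4 of 6 called lower and with Sst and Iapp at 0 in every D30 tumor, and acinar markers to 272.5 to 60940 and 144.2 to 5843, with 0 of 7 called and 3 at an unadjusted p under 0.05. Neutrophil markers ran the other way, at 630.3 to 3128 in CTRL and 760.9 to 16180 in D30, highest in T5, with 6 of 6 fitted higher, 0 of 6 called and 4 at an unadjusted p under 0.05. The sum of 5 mesothelial markers was 35560 to 43175 in CTRL and 28638 to 97756 in D30, again highest in T5. Nearly all of it was Msln, at 35261 to 42928 in CTRL and 28329 to 97050 in D30. Of the 5 markers 3 were fitted higher and 2 lower, with 0 called and 2 at an unadjusted p under 0.05. Sums of pericyte, T cell, B cell and adipocyte markers overlapped between the groups, with 0 genes of these lists called by limma and 1, 2, 1 and 0 at an unadjusted p under 0.05. The part of these cells in the results below was not tested, and in whole tumors fewer cells of a type and less RNA per cell cannot be told apart.

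In D30 tumors Tgfb3, a TGF-beta ligand, was lower by 52.5%, and Chrd, which encodes the BMP antagonist chordin, was 3.9-fold higher. These 2 of 47 members (4.26%) passed the test, which was limma with Benjamini-Hochberg adjustment over all tested genes at an adjusted p under 0.05. Of all tested genes 2.76% passed, 1.4% as higher and 1.36% as lower, so the members' share was near that of the table. The calls over all genes, 344 higher and 334 lower, were 457 and 250 in edgeR and 240 and 626 under library-size scaling. At an unadjusted p under 0.05 the members numbered 7 of 47 (14.9%), against 17.3% of all tested genes. The groups of 5 tumors did not overlap for 2 members, Tgfb3 and Bmp6, or 4.26%, against 6.19% of all tested genes. Both were lower in D30, and 3.32% of all tested genes were lower in D30 without overlap. DESeq2 on the recovered reads called 4 members (Tgfb3, Ltbp2, Bmp6 and Chrd), against 8.52% of the 21799 genes to which DESeq2 gave an adjusted p. Fitted log2 fold changes (D30 minus CTRL) were negative for 33 members and positive for 14, with a median of -0.16 against -0.06 over all tested genes. Scaling by library size in place of the authors' size factors lowered the median of all genes to -0.27 and made 42 members negative. In 40 of 47 members the fitted change was less than 2-fold. A change of 2-fold or more was fitted in 14.9% of members, near the 17.7% of all tested genes. The median size was 0.253 on the log2 scale against 0.405 over all tested genes.

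**Figure D1:**
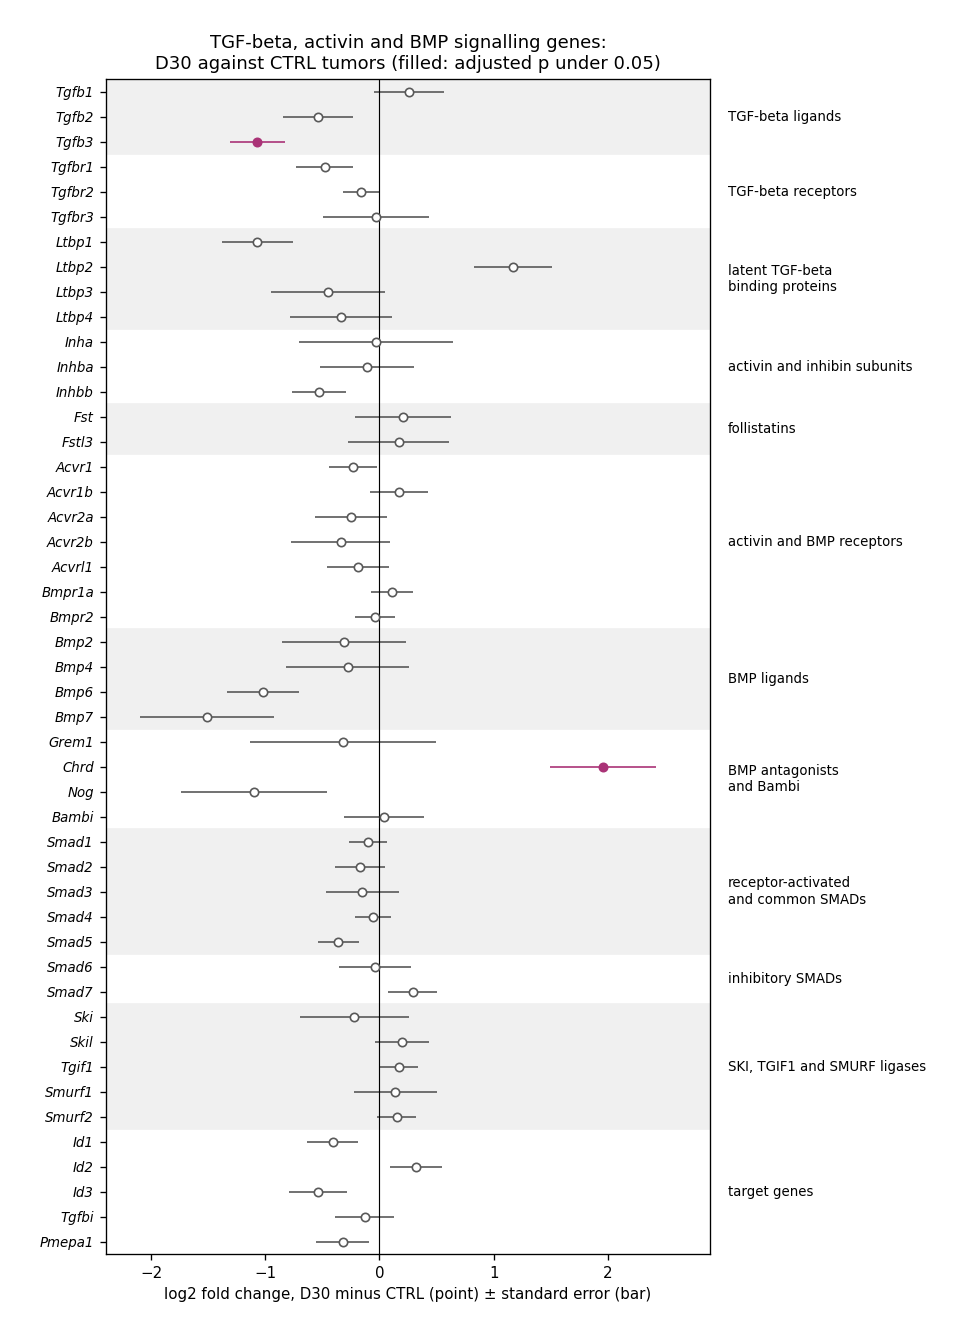
Fitted log2 fold change of each of the 47 genes (D30 minus CTRL, 5 tumors each, on the log2(normalized count + 1) scale), ordered by role, with bars for the standard error and filled points for an adjusted p under 0.05. Only Tgfb3, at -1.07, and Chrd, at 1.96, are filled, and 40 of the 47 points lie within a 2-fold change. A change of 2-fold or more was fitted in 14.9% of members and 17.7% of all tested genes.

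Among the TGF-beta ligands, Tgfb3 had normalized counts of 1058, 1146, 822.3, 990.6 and 1008 in N1, N2, N4, N5 and N6, and of 563.4, 425, 279.9, 532.3 and 669 in T1, T2, T4, T5 and T7. Every D30 tumor lay below every CTRL tumor, with T4 the lowest. The means were 1005 ± 119 and 493.9 ± 148 (SD, n = 5 each). The log2 fold change was -1.07 ± 0.238 (SE), with an adjusted p of 0.0298 by limma and a two-sided exact permutation p of 0.00794, the smallest that 5 against 5 tumors allow. Without T4 the difference was still called (log2 fold change -0.89, adjusted p = 0.0099). The call was lost when N1, N2, N5, N6 or T2 was left out, with adjusted p from 0.0689 to 0.105 in these fits.

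Tgfb1, the most abundant ligand of the family per length, did not pass the test. It had 2657, 4304, 5128, 3473 and 3713 normalized counts in the CTRL tumors and 5342, 3864, 2107, 7607 and 5538 in the D30 tumors, in the column order above. The highest and the lowest of the 10 values, T5 and T4, were both D30 tumors. Limma fitted a log2 fold change of 0.26 ± 0.308 (SE, adjusted p = 0.723). Tgfb2 had 451.3, 319.5, 304.2, 290.4 and 375.6 in CTRL and 221.1, 136.3, 372.4, 382.3 and 169.4 in D30. T1, T2 and T7 lay below all CTRL tumors, while T4 and T5 lay within their range. The log2 fold change of Tgfb2 was -0.54 ± 0.309 (adjusted p = 0.399), and without T4 and T5, an analysis chosen after seeing the data, -0.99 (adjusted p = 0.012).

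Because the 3 ligands differ in transcript length, they were also compared as levels per kb of exon. Tgfb3 made up 34.1%, 27.1%, 18.5%, 28.4% and 27.1% of the summed ligand level per kb in the CTRL tumors and 13.2%, 13.7%, 14.6%, 9.08% and 14.9% in the D30 tumors. The highest D30 share was thus below the lowest CTRL share. The mean share of Tgfb3 was 27% ± 5.57 in CTRL and 13.1% ± 2.36 in D30 (SD, n = 5), and that of Tgfb1 67.4% ± 7.12 and 82.3% ± 4.92. Tgfb2 held 5.54% ± 1.8 and 4.6% ± 3.84, with its largest share, 11.4%, in T4.

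**Figure D2:**
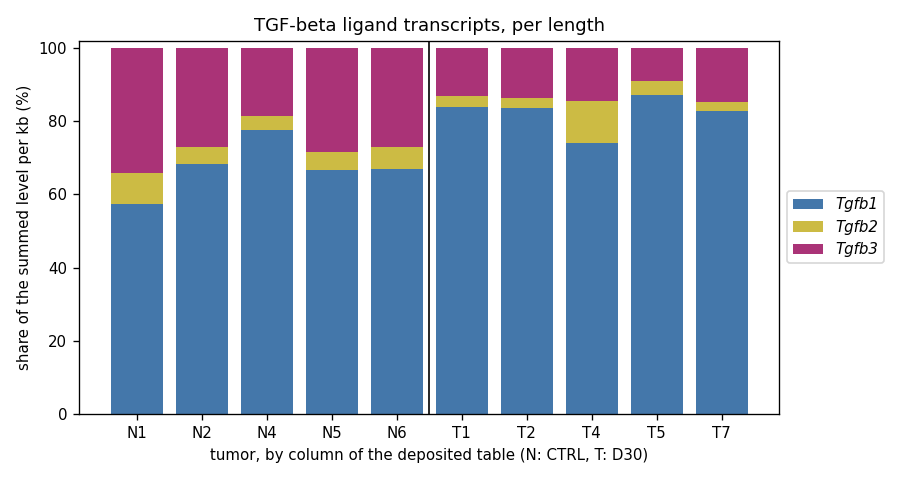
Stacked shares (%) of Tgfb1, Tgfb2 and Tgfb3 in their summed normalized count per kb of exon, 1 bar for each of the 10 tumors, CTRL left of the line and D30 right of it. The Tgfb3 share runs from 18.5% to 34.1% in CTRL and from 9.08% to 14.9% in D30.

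The TGF-beta receptors gave no call in the analysis of all 10 tumors. Tgfbr2, the type II receptor that binds the ligand and the most abundant of the 3 per length, had 6742, 6125, 5652, 6097 and 5771 normalized counts in CTRL and 6265, 5169, 5877, 5364 and 4582 in D30. Its log2 fold change was -0.16 ± 0.156 (adjusted p = 0.644 by limma), and the groups overlapped. Tgfbr1, the type I receptor, had 3414, 2858, 2544, 3190 and 2783 in CTRL and 2014, 1504, 3906, 2367 and 1474 in D30. T4 was the highest of all 10 tumors, and the other 4 D30 tumors were below every CTRL tumor. The fitted difference was -0.48 ± 0.252 on the log2 scale (adjusted p = 0.352), and without T4 it was -0.71 (adjusted p = 0.0282). The co-receptor gene Tgfbr3 ran from 56.66 to 278.7 in CTRL and from 100.6 to 369.7 in D30, with a log2 fold change of -0.03 (adjusted p = 0.982).

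Some of the latent TGF-beta binding proteins, though not every one, tether the inactive ligand to the matrix. Ltbp1 had 2298, 3627, 2632, 1872 and 2069 normalized counts in CTRL and 1223, 797.2, 862.8, 2613 and 948.1 in D30. T5 fell within the CTRL range and the other 4 D30 tumors below it. On the log2 scale the difference was -1.07 ± 0.31 (adjusted p = 0.0908 by limma), so it missed the threshold, while it passed without T5 (-1.36, adjusted p = 0.00789) and under library-size scaling (-1.29, adjusted p = 0.0422).

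Ltbp2, a family member that is associated with microfibrils, had 766.9, 621, 560.1, 574.5 and 494.6 normalized counts in CTRL and 1771, 612.8, 971.6, 2866 and 1431 in D30. T2 lay within the CTRL range and the other D30 tumors above it. The log2 fold change was 1.17 ± 0.342 (adjusted p = 0.0944 by limma). It passed in DESeq2 on the recovered reads (1.34, adjusted p = 0.00597), without T2 (adjusted p = 0.0282) and without T4 (adjusted p = 0.0399). Per kb of exon, Ltbp2 made up 2.61% ± 1.88 of the 4 binding proteins in CTRL and 7.69% ± 4.72 in D30 (SD, n = 5).

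Ltbp3 was by far the most abundant of the 4, with 10047, 33617, 24702, 35657 and 26233 normalized counts in CTRL and 20915, 20746, 4653, 41037 and 19710 in D30. N1 and T4 were the lowest of their groups, and T5 was the highest of all tumors. Its log2 fold change was -0.45 ± 0.502 (adjusted p = 0.696 by limma) and turned to 0.03 without T4. Ltbp4 spanned 1023 to 2163 in CTRL and 335.4 to 2159 in D30, with a log2 fold change of -0.34 (adjusted p = 0.748) that became 0.16 without T4.

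**Figure D3:**
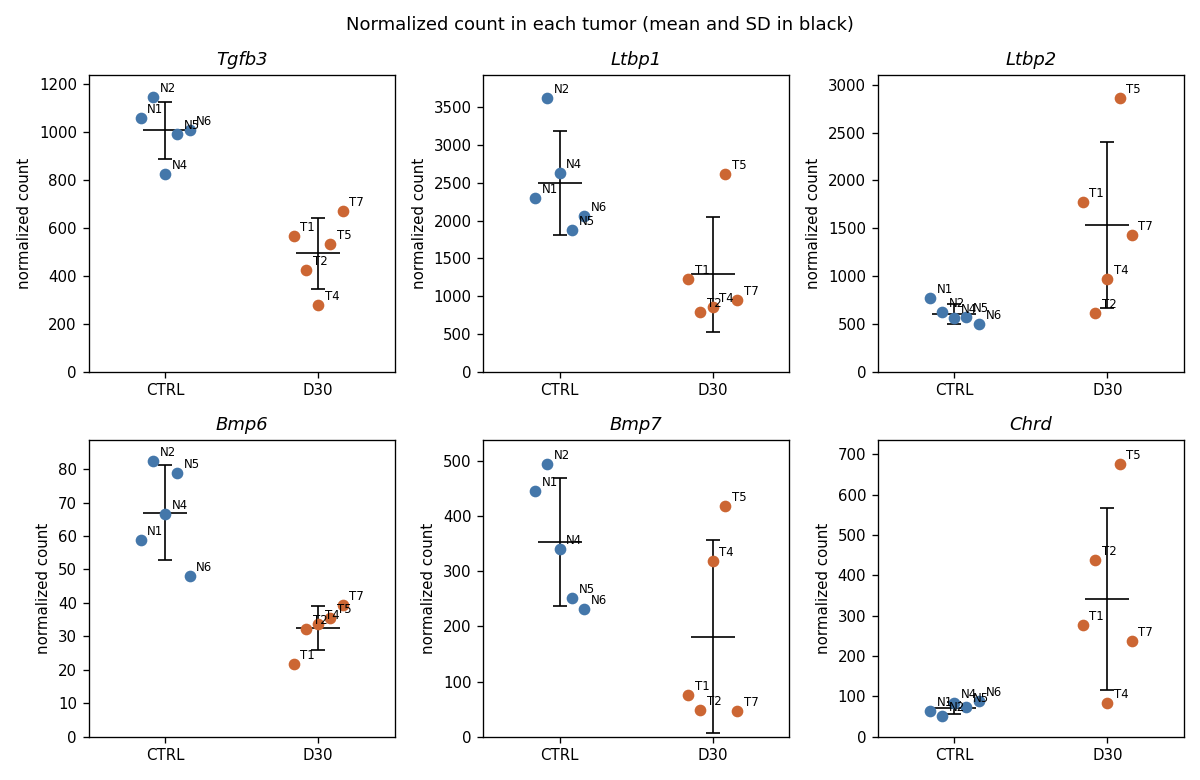
Normalized count of 6 members in each tumor (points, named by column), with the mean and SD of the 5 CTRL and the 5 D30 tumors in black. Tgfb3 and Bmp6 do not overlap between groups, Chrd overlaps through T4, Ltbp1 through T5, Ltbp2 through T2, and Bmp7 through T4 and T5.

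BMP ligands signal through SMAD1 and SMAD5 and are held back by extracellular antagonists such as chordin, gremlin and noggin. The promoter of Chrd, the member that rose, and that of Bmp6, the ligand with no overlap between groups, are given as the 250 bases before the annotated start, 5′ to 3′ on the strand of the gene, from RefSeq on GRCm38.p6. Chrd is on the plus strand at chr16:20732877-20733126 and Bmp6 on the plus strand at chr13:38345466-38345715. Capitals mark GTCT or its reverse complement AGAC, the short element that SMAD3 and SMAD4 contact, and the palindrome GGCGCC, a GC-rich element bound by BMP-regulated SMADs.
Chrd: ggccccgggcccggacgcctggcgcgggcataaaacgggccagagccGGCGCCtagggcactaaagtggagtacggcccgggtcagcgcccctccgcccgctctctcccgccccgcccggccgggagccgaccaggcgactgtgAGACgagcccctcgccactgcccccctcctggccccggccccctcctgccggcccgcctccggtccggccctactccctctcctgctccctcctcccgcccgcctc
Bmp6: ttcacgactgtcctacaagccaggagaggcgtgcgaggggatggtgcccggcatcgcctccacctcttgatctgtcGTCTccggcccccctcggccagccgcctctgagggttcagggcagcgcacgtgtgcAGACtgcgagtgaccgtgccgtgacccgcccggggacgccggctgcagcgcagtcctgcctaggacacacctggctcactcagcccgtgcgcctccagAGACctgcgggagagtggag
The Chrd window holds 1 GTCT and 1 GGCGCC, and the Bmp6 window 3 GTCT and no GGCGCC, with no overlap between the motifs. On either strand, GTCT occurs in 82.9% of 32851 promoter windows of the same length and GGCGCC in 9.59%. Of the 47 members, 33 had an entry, with 43 promoters, of which 83.7% hold GTCT and 27.9% GGCGCC. These matches describe the letters only.

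Chrd had 63.12, 50.6, 83.14, 73.48 and 87.27 normalized counts in CTRL and 275.6, 436.4, 83.28, 676.5 and 237.5 in D30. T4 was at the CTRL level, and the other 4 D30 tumors were above every CTRL tumor. The means were 71.52 ± 15 and 341.9 ± 225 (SD, n = 5). Limma fitted a log2 fold change of 1.96 ± 0.463 (SE, adjusted p = 0.0392), with a two-sided exact permutation p of 0.0159. The call rested on having all 10 tumors or dropping T4. Without T4 the log2 fold change was 2.39 (adjusted p = 0.00106), and without any 1 of the other 9 tumors the adjusted p was 0.056 to 0.121. It was also lost under library-size scaling (1.74, adjusted p = 0.0733). Chrd shares 239 exonic bases, 3.82% of its exon length, with Thpo on the opposite strand, and whether reads were counted by strand is not given in the sources used here.

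Bmp6 was low in these tumors, with 58.91, 82.41, 66.7, 78.79 and 47.92 normalized counts in CTRL and 21.59, 32.07, 33.54, 35.49 and 39.41 in D30. Every D30 tumor was below every CTRL tumor. The fitted difference was -1.02 ± 0.319 on the log2 scale (adjusted p = 0.115 by limma, unadjusted exact permutation p = 0.00794), so it did not pass over all genes, while DESeq2 gave an adjusted p of 0.0094. Bmp6 shares 224 exonic bases, 5.74% of its exon length, with the abundant Txndc5 (mean normalized count 6374) on the opposite strand.

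Bmp7, the most abundant of the 4 BMP ligands per length, had 446.1, 494.5, 340.8, 251.4 and 231 normalized counts in CTRL and 75.06, 48.11, 319.2, 419 and 46.87 in D30. T4 and T5 lay within the CTRL range, and T1, T2 and T7 lay far below it. On the log2 scale the difference was -1.51 ± 0.589 (adjusted p = 0.208 by limma). Without T4 and T5 it was -2.59 (adjusted p = 0.00017), in a fit chosen after seeing the data in which 9.97% of all tested genes were called. Leaving out T4 alone or T5 alone, like every other single tumor, gave no call. Bmp7 held 65.1% ± 5.98 of the summed BMP ligand level per kb in CTRL and 48.9% ± 20.6 in D30, where its share ran from 23% in T7 to 70.4% in T4.

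Bmp2 and Bmp4 were low in both groups. Bmp2 ran from 44.82 to 86.8 in CTRL and from 13.37 to 161.4 in D30 (log2 fold change -0.31, adjusted p = 0.816 by limma), and its sign turned in edgeR (0.11) and DESeq2 (0.10). Bmp4 ran from 9.412 to 37.87 and from 7.197 to 34.7 (-0.28, adjusted p = 0.838). The antagonist Grem1, gremlin, had 22.41 to 163.5 in CTRL and 16.04 to 398.4 in D30, with T5 alone above the CTRL range, and its sign turned from -0.32 in limma to 0.55 in edgeR and 0.53 in DESeq2. Nog, noggin, was near the detection limit, at 0 to 8.223 in CTRL and 0 to 2.291 in D30, where T4, T5 and T7 were at 0. Bambi, a pseudoreceptor that dampens the signal, ran from 46.92 to 144.1 and from 48.32 to 101.8, with a log2 fold change of 0.04 (adjusted p = 0.973) that was -0.01 in edgeR, -0.02 in DESeq2 and -0.18 under library-size scaling.

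Activins are dimers of inhibin beta subunits, and follistatins bind and neutralize them. None of these 5 genes passed the test with limma, and 1 of them, Inhbb, had an unadjusted p under 0.05. Inhbb, the beta-B subunit, had 1053, 1269, 867, 1061 and 697.3 normalized counts in CTRL and 759.8, 633.4, 429.1, 833.3 and 786.1 in D30. T4 was the lowest, and the groups overlapped through N6. The log2 fold change was -0.53 ± 0.234 (adjusted p = 0.263).

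Inhba, the beta-A subunit, had 604.1 to 1185 in CTRL and 319.6 to 2007 in D30 (log2 fold change -0.11, adjusted p = 0.923 by limma). Its sign was positive in edgeR (0.16) and DESeq2 (0.14). Inha, the inhibin alpha subunit, was 17.11 to 24.67 in CTRL, and in D30 5.783 to 29.78 in 4 tumors and 136.2 in T5. Fstl3 had 223, 341.2, 348.1, 264.7 and 303.7 in CTRL and 284.8, 177.5, 241.7, 1282 and 243.9 in D30. T5 stood far above the other 9 tumors, and the log2 fold change of 0.17 ± 0.442 (adjusted p = 0.885) became -0.32 without it. Fstl3 shares 47.3% of its exon length with Prss57 on the opposite strand, a gene with a mean normalized count of 4.6. Fst was highest in T4 (543.6) and N1 (388.2), with a log2 fold change of 0.21 (adjusted p = 0.844) that was -0.12 without T4 and -0.01 under library-size scaling.

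The 7 activin and BMP receptors gave no call, and their log2 fold changes lay between -0.34 and 0.17. Acvr1b, the type I activin receptor and the most abundant of them per length, had 1436, 2279, 2459, 2758 and 2350 normalized counts in CTRL and 2887, 2959, 1375, 2872 and 2784 in D30. N1 and T4 were the lowest of their groups, and the other 4 D30 tumors were above every CTRL tumor. Limma fitted a log2 fold change of 0.17 ± 0.252 (adjusted p = 0.78), and -0.05 under library-size scaling. Acvr1, Acvr2a, Acvr2b, Acvrl1 and Bmpr2 had negative fold changes (-0.23, -0.25, -0.34, -0.19 and -0.04), and Bmpr1a a positive one (0.11, and -0.11 under library-size scaling). The sign of Acvr2b turned without T4 (0.02), and that of Bmpr2 without T7 (0.07), without N5 or without T2. Acvr2a shares 7.84% of its exon length with Orc4 on the opposite strand.

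No SMAD transcript passed the test over all 10 tumors. Smad4, the common partner and the most abundant SMAD per length, had 4677, 3956, 4277, 4364 and 3801 normalized counts in CTRL and 3626, 3738, 4637, 4626 and 3661 in D30. T4 and T5 lay within the CTRL range and the other D30 tumors just below it. The fitted difference was -0.06 ± 0.158 on the log2 scale (adjusted p = 0.885 by limma). Smad5 had 2795, 2417, 2347, 2665 and 2235 in CTRL and 1815, 1882, 2761, 1642 and 1749 in D30, with every D30 tumor except T4 below every CTRL tumor. Its log2 fold change was -0.36 ± 0.181 (adjusted p = 0.328), and without T4 it was -0.49 (adjusted p = 0.0449).

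The other receptor-activated SMADs had log2 fold changes of -0.10 (Smad1, adjusted p = 0.801), -0.17 (Smad2, adjusted p = 0.738) and -0.15 (Smad3, adjusted p = 0.851, and 0.16 without T4). Smad7, an inhibitory SMAD and itself a target of the pathway, had 1611, 2163, 2139, 2093 and 1828 normalized counts in CTRL and 2466, 1938, 1981, 3981 and 2102 in D30. T5 was the highest and the groups overlapped, with a log2 fold change of 0.29 ± 0.216 (adjusted p = 0.522 by limma). Smad6, the other inhibitory SMAD, ran from 254.6 to 536.3 in CTRL and from 195.5 to 588 in D30 (-0.04, adjusted p = 0.97), and its sign turned in edgeR (0.03), in DESeq2 (0.02) and without T4 (0.23).

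None of the 5 genes that restrain SMAD output inside the cell was called by limma. Tgif1, a corepressor and the most abundant of them per length, had 4363, 4313, 4796, 4195 and 3745 normalized counts in CTRL and 4285, 4487, 5495, 5777 and 4121 in D30. T4 and T5 were the highest and the other values overlapped. Its log2 fold change was 0.17 ± 0.165 (adjusted p = 0.657), and -0.06 under library-size scaling. The corepressor Skil and the ubiquitin ligases Smurf1 and Smurf2 had log2 fold changes of 0.20, 0.14 and 0.15 (adjusted p = 0.709, 0.883 and 0.704), each below 0 under library-size scaling (-0.02, -0.08 and -0.07). Ski had -0.22 (adjusted p = 0.859), and 0.29 without T4, where it had 896.4 normalized counts against 4518 to 5728 in the other D30 tumors.

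The 5 target genes include Id1, Id2 and Id3, BMP-responsive inhibitors of basic helix-loop-helix factors. Id1, the most abundant member per length, had 4712, 5131, 6409, 4904 and 5023 normalized counts in CTRL and 5225, 3630, 3919, 2346 and 5274 in D30. T2, T4 and T5 lay below every CTRL tumor, and T1 and T7 lay within the CTRL range. On the log2 scale the difference was -0.41 ± 0.226 (adjusted p = 0.38 by limma). Id3 had 728, 536.4, 560.1, 391.3 and 644.3 in CTRL and 328, 504, 385.2, 258.7 and 519.8 in D30, with overlapping groups and T5 the lowest. Its log2 fold change was -0.54 ± 0.252 (adjusted p = 0.295).

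Id2 ran the other way in its fitted sign, from 1608 to 2037 in CTRL and from 1410 to 3709 in D30 (log2 fold change 0.32, adjusted p = 0.516 by limma). Tgfbi, a matrix protein induced by TGF-beta, had 881.7 to 2129 in CTRL and 1050 to 2043 in D30 (-0.13, adjusted p = 0.849). Pmepa1, a TGF-beta target that acts back on SMAD signalling, had 9501 to 15953 and 6905 to 14461 (-0.32, adjusted p = 0.512). None of the 5 target genes was thus called, and 0 of 5 had an unadjusted p under 0.05.

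**Figure D4:**
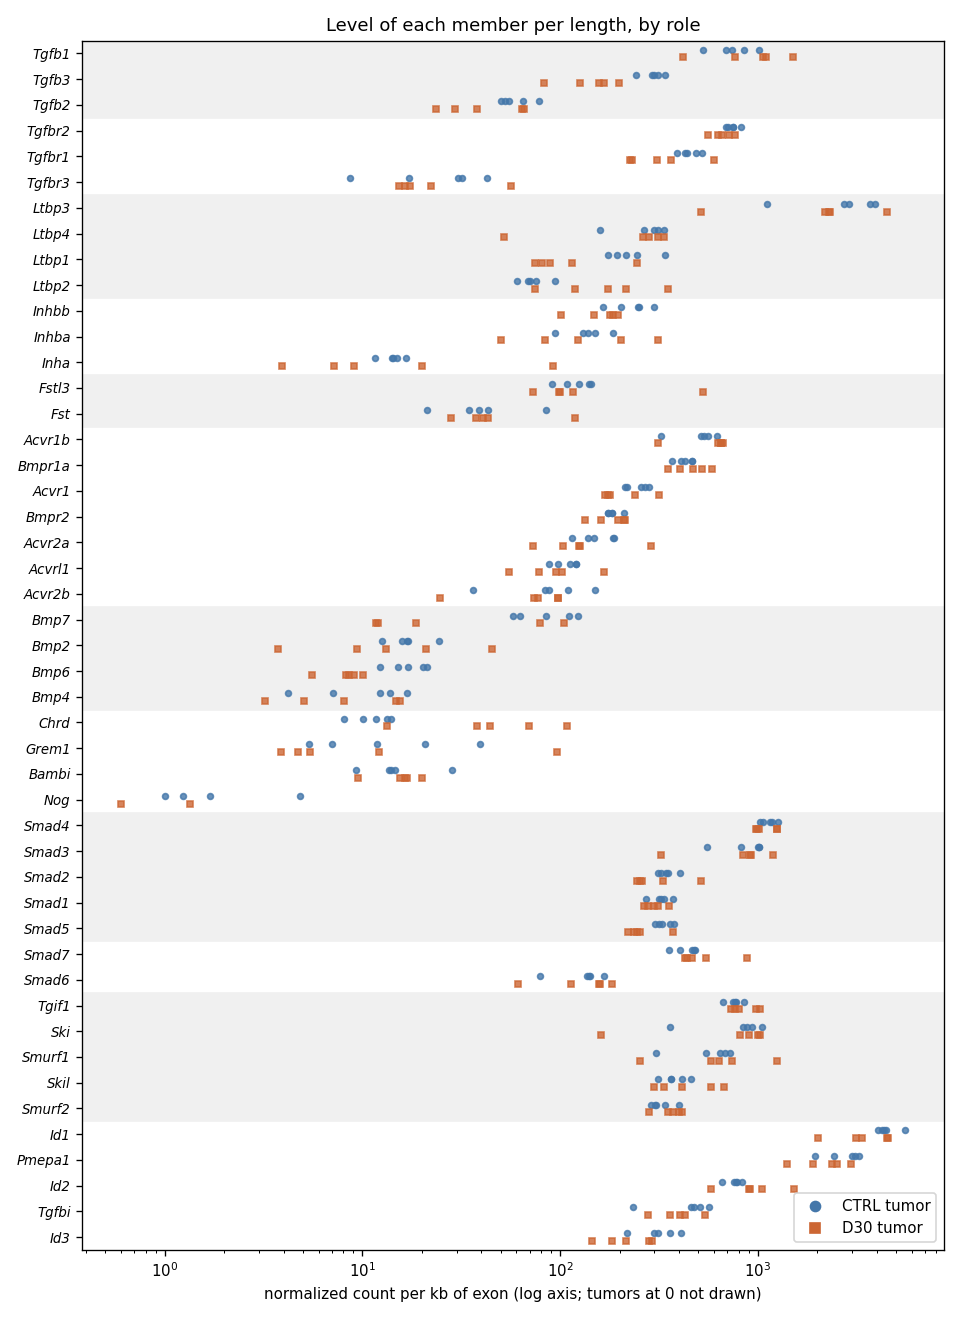
Normalized count per kb of exon (log axis) of every member in every CTRL tumor (circles) and D30 tumor (squares), sorted by mean level within each role. Id1, Pmepa1 and Ltbp3 are the most abundant, Nog the least, and 4 values of 0, all of Nog, are not drawn.

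Of 118 other genes of the pathway, kept in a separate list, 103 could be tested and 3 (2.91%) were called by limma with Benjamini-Hochberg adjustment, all higher in D30, against 2.76% of all tested genes. Their median log2 fold change was -0.18. For 7 of 103 (6.8%) the groups did not overlap, 2 higher and 5 lower, against 6.19% of all tested genes. At an unadjusted p under 0.05 were 21 (20.4%, against 17.3%), 6 higher and 15 lower, against 1914 higher and 2344 lower over all tested genes. DESeq2 called 10 genes of the list, 5 of them higher, against 8.52% of the genes to which it gave an adjusted p. Itgb6, a subunit of the integrin that activates latent TGF-beta, had 69.43, 60, 98.67, 66.4 and 80.43 normalized counts in CTRL and 165.5, 203.9, 222.1, 179.7 and 157.7 in D30. The groups did not overlap, and the log2 fold change was 1.31 ± 0.253 (adjusted p = 0.0153), with the call lost without N2 (adjusted p = 0.0631) or N5 (adjusted p = 0.0505).

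Gdf15, a distant ligand of the superfamily that is induced by cell stress, had 11.57, 33.98, 58.47, 16.82 and 31.66 normalized counts in CTRL and 109, 104.2, 79.81, 210.6 and 103.3 in D30. Every D30 tumor was above every CTRL tumor. The log2 fold change was 2.08 ± 0.446 (adjusted p = 0.0253 by limma), and the call was lost without N1, N2, N5, N6, T2 or T7, with adjusted p up to 0.0762. Tsc22d1, a transcriptional regulator named for its induction by TGF-beta, had 12362, 7900, 8412, 8181 and 7614 in CTRL and 17200, 11204, 21142, 15590 and 16936 in D30. Only N1 and T2 overlapped. Its log2 fold change was 0.88 ± 0.211 (adjusted p = 0.0432), and it was called in 3 of 10 fits that left out 1 tumor, those without N1, T2 or T4, and not under library-size scaling (adjusted p = 0.0852), upper-quartile scaling (adjusted p = 0.0543) or with no filter (adjusted p = 0.0652).

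Much of the spread among D30 tumors came from T4 and T5. T5 was the highest of the 10 tumors for 18 members (38.3%), while it was the highest for 18.9% of all tested genes. The lowest value was that of T5 for 4 members (8.51%, against 18.8% of all tested genes). T4 was the lowest for 14 members (29.8%, against 22.3% of all tested genes) and the highest for 6 (12.8%, against 24.3%). N1 was the lowest CTRL tumor and T4 the lowest D30 tumor in the same 10 members (21.3%, against 18.9% of all tested genes), namely Tgfb1, Ltbp3, Ltbp4, Acvr1b, Acvr2b, Smad3, Smad6, Ski, Smurf1 and Pmepa1. Both were the highest of their groups in 8 (17%, against 19.4%), namely Tgfbr1, Fst, Bmp4, Bambi, Smad2, Smad4, Smad5 and Skil.

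**Figure D5:**
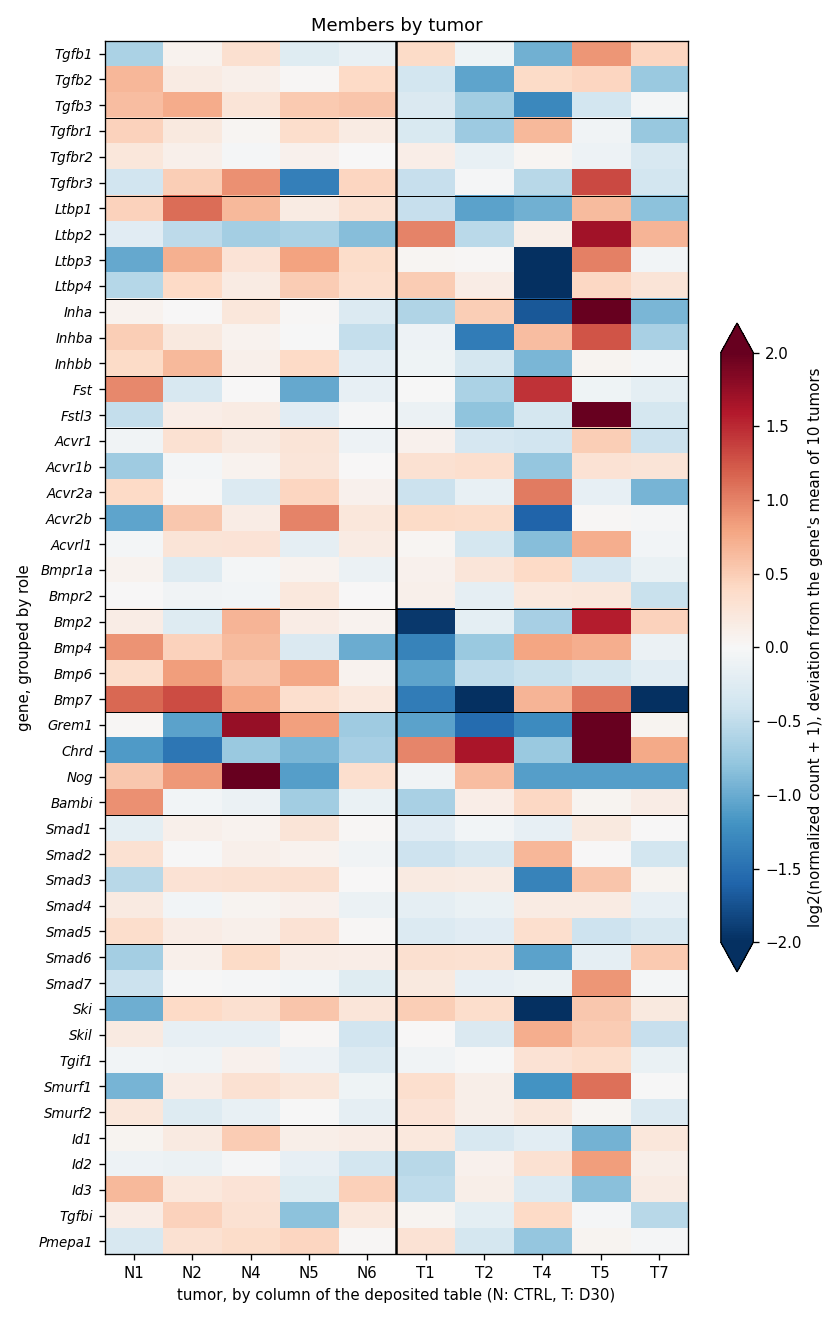
Deviation of log2(normalized count + 1) from the mean of the 10 tumors, for each member (grouped by role, thin lines) and tumor (CTRL left, D30 right of the thick line), with colors cut at -2 and 2. T4 and T5 differ most from the other D30 tumors, and Tgfb3 and Bmp6 are lower in every D30 tumor than in any CTRL tumor.

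With T4 left out, limma called 5 members (Tgfb3, Tgfbr1, Ltbp2, Chrd and Smad5), while 6.43% of all tested genes were called. The groups then did not overlap for 6 of 47 members (12.8%), against 12.1% of all tested genes. With T4 and T5 left out, 8 members were called (Tgfb2, Tgfb3, Tgfbr1, Ltbp1, Ltbp2, Bmp6, Bmp7 and Chrd), against 9.97% of all tested genes, and the groups did not overlap for 11 members (23.4%, against 19%). Without N1, N2, N5 or N6 limma called 0 members, while 1.92%, 1.14%, 1.38% and 1.35% of all tested genes were called. Over all tested genes there were 678 calls with all tumors and 1573 without T4.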

How the data were processed

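Strand-specific RNA-seq libraries of 10 tumors were aligned by the authors with STAR 2.7.0e, against GRCm39 per the submitters' processing notes and hg38 per the methods. RSEM is named among the software, and its settings and the annotation are not given in the sources used here. The values deposited by the authors in 1 table are a signal, reads scaled by size factors as DESeq2 scales them. In each column 100% of values were whole multiples of 1 step (tolerance 0.05), so reads were recovered. GENCODE M21 named 52083 of 55359 genes (94.1%) and gave exon lengths. Its exon positions gave the exonic bases shared between genes, and the promoter coordinates came from RefSeq.

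Because the values are not raw counts, limma 3.58.1 in R 4.3.3 (moderated test with a mean-variance trend) was run on log2(normalized count + 1), in place of a count test. It covered 24560 genes with a mean of at least 1, with Benjamini-Hochberg adjustment and a threshold of 0.05. Fold changes on this scale understate changes of low genes. On the recovered reads edgeR 4.0.16 (quasi-likelihood) called 707 genes and DESeq2 1.42.0 1858. Other alternatives were DESeq2 size factors in edgeR, library-size and upper-quartile scaling, pseudocounts of 0.5 and 10, a mean of at least 10, no filter, leaving out each tumor, and leaving out T4 and T5. The script was tested on simulated data. Given in full are called members, the members with the smallest p up to 12, and the most abundant member per kb of each role, and the called genes among the other pathway genes. The members and lists were chosen with earlier results of these data known. Each tumor is a separate biological replicate per the labels.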

Additional observations from a re-analysis of the deposited data

Results flagged for a closer look

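In each group of 5 tumors, the gap between the highest or lowest tumor and its nearest neighbour was set against the group's range, with Dixon's critical value of 0.71. Over 94 groups (47 members in CTRL and in D30), 14 held a tumor that stood apart, where chance gives about 1 group in 20. The groups share the same 10 tumors and are not independent, and flags were not counted over all tested genes. Over all tested genes T4 was the lowest D30 tumor in 35.2% and the highest in 32.5%. For N1 within CTRL these shares were 33.3% and 32.3%. These shares do not give the rate of flags over all tested genes. Without that rate the count is not read as a result about the members. T4 accounted for 6, N1 for 3, T5 for 2, N5 for 2 and N4 for 1, and N2, N6, T1, T2 and T7 for 0.

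Ltbp4 had 335.4 normalized counts in T4 against 1694 to 2159 in the other tumors of its group, and Acvr1b had 1375 normalized counts in T4 against 2784 to 2959 in the others. Acvr2b had 97.16 normalized counts in T4 against 289.7 to 385.6 in the other tumors of its group, and Smad3 had 1792 normalized counts in T4 against 4684 to 6607 in the others. Ski had 896.4 normalized counts in T4 against 4518 to 5728 in the other tumors of its group, and Smad5 had 2761 normalized counts in T4 against 1642 to 1882 in the others. Ltbp3 had 10047 normalized counts in N1 against 24702 to 35657 in the other tumors of its group, and Smad6 had 254.6 normalized counts in N1 against 441 to 536.3 in the others. Ski had 1999 normalized counts in N1 against 4682 to 5816 in the other tumors of its group. Tgfbr3 had 369.7 normalized counts in T5 against 100.6 to 145.5 in the other tumors of its group, and Fstl3 had 1282 normalized counts in T5 against 177.5 to 284.8 in the others. Bmpr2 had 3782 normalized counts in N5 against 3140 to 3290 in the other tumors of its group, and Tgfbi had 881.7 normalized counts in N5 against 1721 to 2129 in the others. Id1 had 6409 normalized counts in N4 against 4712 to 5131 in the other tumors of its group. T4 was thus low in 5 of these members and high in Smad5. It was also the only tumor with reads of Y-linked genes, and T5 the one with the fewest genes above 0. The part of either in these values was not tested.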

How the results depend on the processing

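No paired analysis was possible because the columns carry numbers that do not match the replicate numbers of the labels. With limma, 2 members and 678 genes in all were called. The members called numbered 2 under edgeR, either scaling, either pseudocount and either filter, though under library-size scaling they were Tgfb3 and Ltbp1. DESeq2 called 4 members, 10 other pathway genes and 1858 genes, and the cause was not tested. Fits without T4 and T5 called 8, 12 and 2418, and fits without 1 tumor 0 to 5, 0 to 8 and 279 to 1573. The extremes were reached without T4 (most) and without N2 (fewest). Library-size scaling moved the median log2 fold change of the members to -0.39 and of the other pathway genes to -0.40, as it lowered the median of all genes to -0.27.

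The sign turned in members that never passed the test, as log2 fold changes. In edgeR with TMM, with DESeq2 size factors and in DESeq2 these were Inha (0.90, 0.88 and 0.88), Inhba (0.16, 0.14 and 0.14), Bmp2 (0.11, 0.10 and 0.10), Grem1 (0.55, 0.53 and 0.53), Bambi (-0.01, -0.02 and -0.02) and Smad6 (0.03, 0.02 and 0.02). Inha was 0.12 with a pseudocount of 10. Under library-size scaling these were Fst (-0.01), Fstl3 (-0.05), Acvr1b (-0.05), Bmpr1a (-0.11), Bambi (-0.18), Skil (-0.02), Tgif1 (-0.06), Smurf1 (-0.08) and Smurf2 (-0.07). Without T4 and T5 these were Ltbp4 (0.14), Fst (-0.17), Fstl3 (-0.34), Acvr2b (0.07), Bambi (-0.10), Smad3 (0.06), Smad6 (0.37), Ski (0.24) and Skil (-0.14). The causes were not tested.

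Leaving out 1 tumor at a time gave ranges across 0 for Tgfbr3 (-0.38 to 0.19), Ltbp3 (-0.76 to 0.03), Ltbp4 (-0.52 to 0.16), Inha (-0.69 to 0.39), Inhba (-0.44 to 0.22), Fst (-0.12 to 0.48), Fstl3 (-0.32 to 0.39), Acvr2b (-0.64 to 0.02), Bmpr2 (-0.10 to 0.07), Bmp2 (-0.74 to 0.13), Bmp4 (-0.56 to 0.02), Grem1 (-1.11 to 0.08), Bambi (-0.13 to 0.27), Smad3 (-0.31 to 0.16), Smad6 (-0.21 to 0.23), Ski (-0.49 to 0.29) and Smurf1 (-0.11 to 0.46). The range was -1.20 to -0.89 for Tgfb3 and 1.64 to 2.39 for Chrd. Low counts limit Nog, at 0 in 4 tumors, which edgeR's filter left out.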
